A study of Homo sapiens with 4 samples.

Results

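HOX genes were followed on 4 Affymetrix arrays of the human colon cancer line SW620, which came from a lymph node metastasis of a colon adenocarcinoma. The members are the probe sets whose platform annotation names 1 gene, with a symbol of HOXA, HOXB, HOXC or HOXD followed by digits. There are 44 such probe sets among 54613 that are no array controls, for 28 genes: 1 probe set for 1 HOXA gene, 19 for 10 HOXB genes, 9 for 9 HOXC genes and 15 for 8 HOXD genes. Only HOXA2 represents the HOXA cluster, and the other HOXA genes and HOXD3 were not analysed here. All arrays carry total RNA of SW620 clone cells. The CD133+ group is 1 clone (CPC1) on 2 arrays and the CD133- group is 1 clone (CNC1) on 2 arrays. The clones were grown from single cells after a magnetic sort for the surface protein CD133, and the expanded cells went through the same kit again before RNA extraction; no further treatment is named. Clone and CD133 status therefore cannot be told apart, and since nothing states whether replicate arrays had their own cultures, p-values measure array spread that could be purely technical.

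HOX genes encode homeodomain transcription factors that give cells their position along the head to tail axis of the embryo. In mammals they lie in the clusters HOXA, HOXB, HOXC and HOXD, each on its own chromosome, and the genes of a cluster are numbered by paralog group: low numbers act toward the head and high numbers toward the tail. Adult gut epithelium keeps a HOX pattern laid down in the embryo, Polycomb proteins hold unused HOX genes silent, and PBX and MEIS proteins bind DNA together with HOX proteins.

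PROM1, the gene of CD133, had log2 signals of 8.46 and 8.73 on the CD133+ arrays against 3.31 and 3.35 on the CD133- arrays, so the arrays bear out their labels. Colon epithelial markers were bright: 7 of 8 lay above the background range defined below, with summed log2 signals of 85.5 on both CD133+ arrays against 86.0 and 85.8 on the CD133- arrays, and the exception was LGALS4, a galectin of intestinal epithelium. Of the leukocyte markers 0 of 3 measured lay above that range, of the endothelial markers 1 of 4 (PECAM1) and of the fibroblast markers 3 of 6 (COL1A1, LUM and PDGFRB). The fibroblast list summed to 30.9 and 31.9 on the CD133+ arrays against 30.9 and 31.5 on the CD133- arrays, the endothelial list to 16.5 and 17.9 on the CD133+ arrays against 15.98 and 17.3 on the CD133- arrays, and the leukocyte list to 11.8 and 11.9 on the CD133+ arrays against 11.3 and 11.6 on the CD133- arrays. Of these cell type markers 0 were called, where 3.74% of all genes tested were called. ACTB probe sets at the 3' and 5' ends, whose gap widens as RNA shortens, were 0.71 and 1.92 log2 units apart on the CD133+ arrays against 1.18 and 0.92 on the CD133- arrays. CD133+ replicate 2 had the widest ACTB gap. The same gap for GAPDH was 0.097 and 0.090 on the CD133+ arrays against 0.017 and 0.026 on the CD133- arrays. Whether RNA quality affected the HOX values was not tested.

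No HOX probe set passed the test between the clones. In limma's fit over all probe sets, 0 of the 44 were higher and 0 were lower in CD133+ cells at an adjusted p under 0.05, where 0.181% of all probe sets were called (0.0494% higher and 0.132% lower). At an unadjusted p under 0.05 there were 6 of 44, against 12.7% of all probe sets: 4 higher, against 5.76%, and 2 lower, against 6.96%. In the fit with 1 probe set per gene, 0 of the 25 HOX genes tested passed, where 3.74% of genes were called, with 1.36% higher and 2.38% lower. Of these genes 7 had an unadjusted p under 0.05, against 20.7% of all: 5 higher, against 10.8%, and 2 lower, against 9.89%. Without CD133- replicate 1 these unadjusted counts were 3 probe sets and 2 genes, and without CD133+ replicate 1 there were 3 genes. Shares over all probe sets and genes were not taken for those unadjusted counts with an array left out. HOXC12, HOXD10 and HOXD12 lay below the level filter of the gene fit and have only the probe-set test. In bulk RNA, fewer cells that express a gene and less RNA per cell cannot be told apart.

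The 44 log2 differences, CD133+ minus CD133-, ran from -0.50 to 0.76, the largest being 1.69-fold, with a median of 0.084 beside 0.015 over all probe sets. The median 95% interval reached 0.44 to either side of a log2 difference, and the widest bounds were -0.98 and 1.26, so the missed threshold does not show equal levels. Both CD133+ arrays lay above both CD133- arrays in 15 of the 44 probe sets, against 23.5% of all probe sets, and below both in 5, against 20.4%, which makes 20 without overlap, against 43.9%. In the gene fit 9 of 25 HOX genes lay wholly above, against 30.4%, and 4 wholly below, against 21.2%, or 13 without overlap, against 51.6%. In 16 of the 44 the difference between the group means was larger than the gap between replicate arrays in either clone, against 31.4% of all probe sets.

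Levels above the background range were found for most HOXB and HOXC genes and for few HOXD genes. The deposited table has no detection calls, so a background range was set from 107 probe sets of 82 olfactory receptor genes, which are silent in most tissues outside the nose: a probe set counts as above it where its mean over the 4 arrays exceeds their 95th percentile, a log2 signal of 4.92. Of the 44 HOX probe sets 22 lay above it, for 17 genes: 9 of 10 HOXB genes, 7 of 9 HOXC genes, 1 of 8 HOXD genes and not HOXA2. Of all probe sets 43.7% lay above it. Counted by annotation label, with labels that name several genes included, 12547 of 20876 had a probe set above it. The 6 members with an unadjusted p under 0.05 were all among these 22, against 21% of all probe sets above the range (9.98% higher and 11% lower; 0.41% called after adjustment, 0.109% higher and 0.301% lower). Both CD133+ arrays lay above both CD133- arrays in 8 of the 22, against 28.5%, and below in 4, against 24.3%, or 12 without overlap, against 52.8%. The member just above it was HOXB1 208224_at and the one just below was HOXB5 205600_x_at, with mean log2 signals of 4.97 and 4.89. The brightest olfactory receptor probe set had a mean of 5.63. HOXB1 208224_at, HOXC4 (5.33), HOXC9 (5.57) and HOXD9 205605_at (5.53) lay under that value, so expression is not established by these probe sets. Levels of different genes are not ranked, since each probe set binds its target with its own strength.

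**Figure D1:**
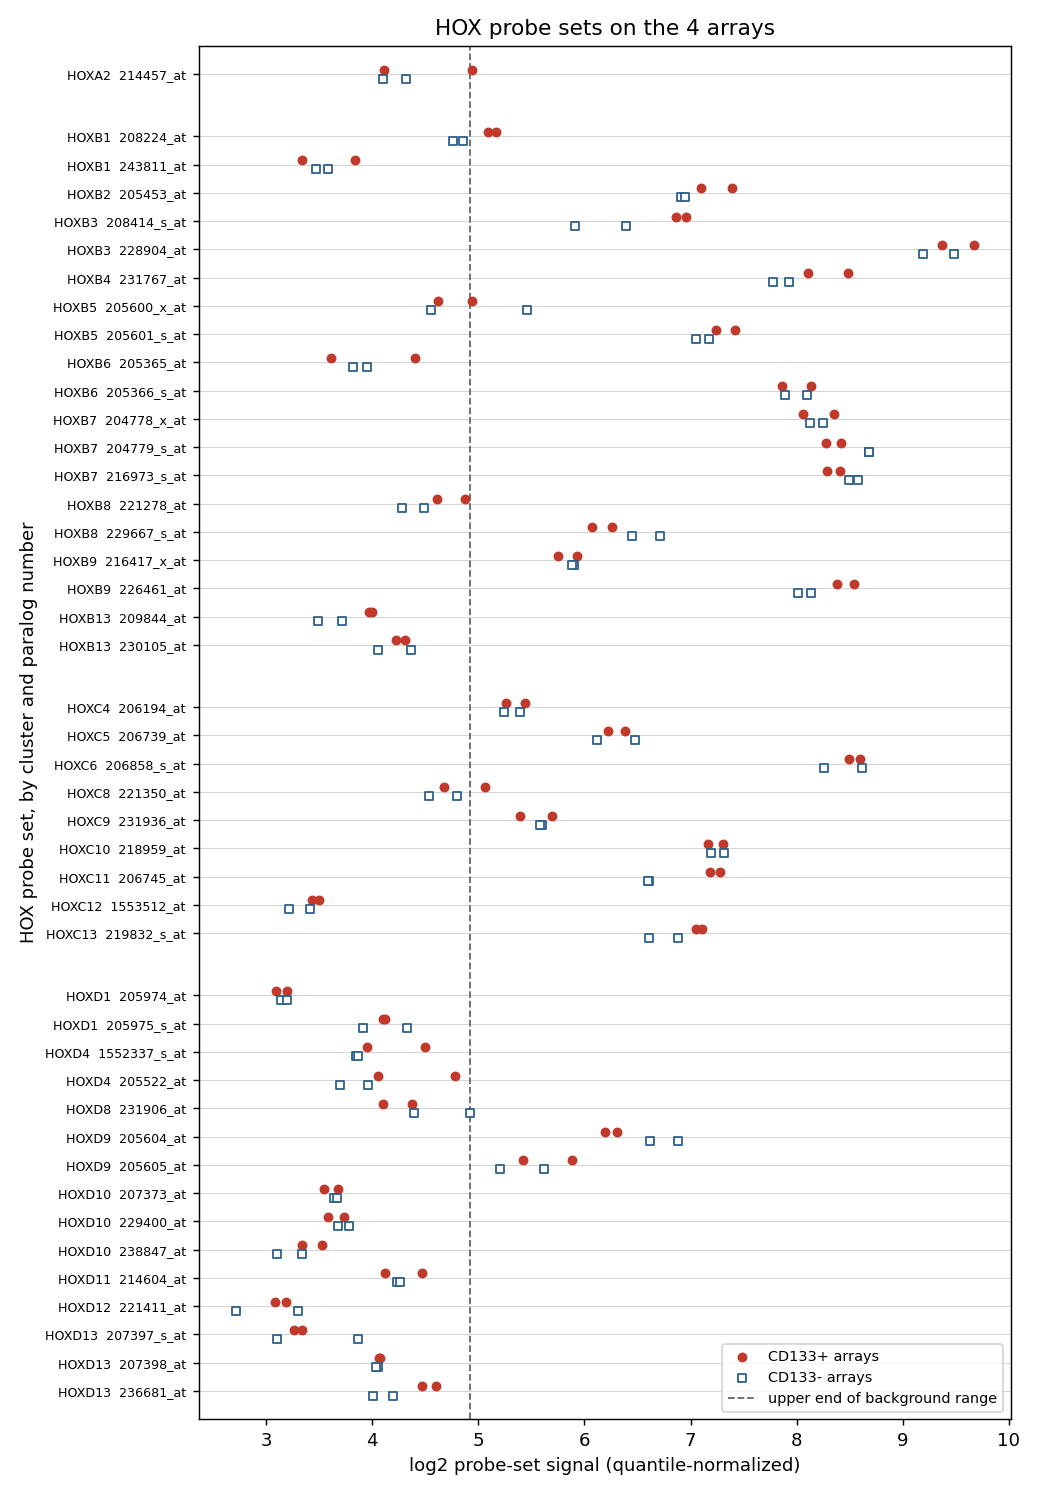
Log2 signal (horizontal axis) of every HOX probe set (rows, by cluster and paralog number) on each array, with filled circles for the CD133+ arrays, open squares for the CD133- arrays and a dashed line at 4.92, the upper end of the background range. Most HOXB and HOXC rows lie right of the line and 13 of the 15 HOXD rows have their mean left of it.

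In the HOXB cluster on chromosome 17, HOXB1 to HOXB9 each had a probe set above the background range, while HOXB13 lay within it. Of the 13 probe sets above the background range 9 had a positive log2 difference and 4 a negative one. HOXB1, which acts in the hindbrain, had log2 signals of 5.17 and 5.09 on the CD133+ arrays against 4.76 and 4.86 on the CD133- arrays, a log2 difference of 0.32 (SE 0.20, adjusted p = 0.550). The CD133+ values lay above the 4.92 line and the CD133- values below it. Its promoter is shown because HOXB1 was the only HOXB member with a sequence in the RefSeq promoter table (11 of the 28 genes had one). It covers chr17:48530962-48531261 of GRCh38.p14 on the minus strand, from 250 bases before the transcription start to 50 after, and capitals mark TAAT, the core that homeodomains bind, or TGATNNAT, a joint site of HOX and PBX proteins, searched on both strands.
HOXB1: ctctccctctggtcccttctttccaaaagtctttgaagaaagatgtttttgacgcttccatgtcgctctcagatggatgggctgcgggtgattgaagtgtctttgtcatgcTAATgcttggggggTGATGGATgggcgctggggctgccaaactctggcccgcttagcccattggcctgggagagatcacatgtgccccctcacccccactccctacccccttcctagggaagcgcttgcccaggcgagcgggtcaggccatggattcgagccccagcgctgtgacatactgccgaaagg
The window held 1 TAAT and 1 TGATNNAT, which did not overlap, and the second read TGATGGAT. Of all 35116 promoter windows of this length, 50.2% held TAAT and 7.40% held TGATNNAT. These are matches of letters and not shown to be bound.

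HOXB2 to HOXB4 all had positive log2 differences. HOXB2, a hindbrain patterning gene, had log2 signals of 7.10 and 7.39 on the CD133+ arrays against 6.91 and 6.95 on the CD133- arrays, a log2 difference of 0.31 (SE 0.18, adjusted p = 0.510). HOXB4, known for expanding blood stem cells when overexpressed, had 8.10 and 8.49 on the CD133+ arrays against 7.78 and 7.93 on the CD133- arrays, a log2 difference of 0.44 (SE 0.18, 95% interval 0.035 to 0.85, unadjusted p = 0.0369, adjusted p = 0.354). The groups did not overlap for either gene. HOXB3 had the largest log2 difference of all members, at 208414_s_at: 6.86 and 6.96 on the CD133+ arrays against 5.91 and 6.39 on the CD133- arrays, 0.76 higher (SE 0.215, 95% interval 0.26 to 1.26, unadjusted p = 0.00838, adjusted p = 0.220). Its other probe set, 228904_at, had 9.67 and 9.37 on the CD133+ arrays against 9.49 and 9.19 on the CD133- arrays, a log2 difference of 0.18 (SE 0.15, adjusted p = 0.670). There the groups overlapped, and whether the HOXB3 probe sets differed in size was not tested. These values depended on the scaling and on single arrays. Under median centring they were 0.059 for HOXB2, 0.21 for HOXB4, 0.58 for HOXB3 208414_s_at and 0.038 for 228904_at. Leaving out CD133+ replicate 2 gave 0.17 for HOXB2 and 0.25 for HOXB4. HOXB3 228904_at was at 0.034 without CD133+ replicate 1 and 0.033 without CD133- replicate 2.

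HOXB5 and HOXB6 had differences whose sign depended on the scaling. HOXB5, a gene of enteric nervous system development, had log2 signals of 7.24 and 7.42 on the CD133+ arrays against 7.05 and 7.17 on the CD133- arrays at 205601_s_at, a log2 difference of 0.22 (SE 0.17) that turned to -0.040 with each array centred on its median. HOXB6 had 7.86 and 8.13 on the CD133+ arrays against 7.89 and 8.10 on the CD133- arrays at 205366_s_at, a log2 difference of 0.0052 (SE 0.17, 95% interval -0.38 to 0.39). The HOXB6 replicates of a clone lay farther apart than the clones did, and its sign was negative both before quantile normalization (-0.15) and under median centring (-0.23).

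HOXB7 and HOXB8 had negative log2 differences at 204779_s_at and 229667_s_at. HOXB7, overexpressed in several carcinomas, had 8.28 and 8.42 on the CD133+ arrays against 8.68 on both CD133- arrays at 204779_s_at, a log2 difference of -0.33 (SE 0.14, 95% interval -0.65 to -0.018, unadjusted p = 0.0408, adjusted p = 0.365). Its probe set 216973_s_at was at -0.19 and 204778_x_at at 0.016, and the last sign turned, to -0.12 before quantile normalization and -0.20 under median centring. HOXB8, which holds back myeloid differentiation when overexpressed in mouse progenitors, had 6.26 and 6.07 on the CD133+ arrays against 6.71 and 6.45 on the CD133- arrays at 229667_s_at, a log2 difference of -0.41 (SE 0.20, adjusted p = 0.438). Its other probe set, 221278_at, lay within the background range with a log2 difference of 0.36, the opposite sign. HOXB9 next to it was higher in both CD133+ arrays at 226461_at, with log2 signals of 8.38 and 8.54 on the CD133+ arrays against 8.01 and 8.14 on the CD133- arrays. Its log2 difference was 0.38 (SE 0.15, 95% interval 0.043 to 0.72, unadjusted p = 0.0319, adjusted p = 0.340), and 216417_x_at was at -0.053. Under median centring HOXB9 226461_at was at 0.17, HOXB7 204779_s_at at -0.53 and HOXB8 229667_s_at at -0.60. HOXB13, a gene of the hindmost body and the prostate, lay within the background range at its 2 probe sets. At 209844_at it had 3.99 and 3.97 on the CD133+ arrays against 3.49 and 3.71 on the CD133- arrays. The groups did not overlap there, with a log2 difference of 0.38 (SE 0.16, adjusted p = 0.395). At 230105_at they overlapped, with a log2 difference of 0.053.

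In the HOXC cluster on chromosome 12, each gene had 1 probe set, and these lay above the background range from HOXC4 to HOXC13 except at HOXC8 and HOXC12. HOXC4, expressed in activated B cells among other tissues, had log2 signals of 5.44 and 5.26 on the CD133+ arrays against 5.24 and 5.39 on the CD133- arrays, a log2 difference of 0.032 (SE 0.21). HOXC5 had 6.22 and 6.39 on the CD133+ arrays against 6.12 and 6.48 on the CD133- arrays, a log2 difference of 0.0038 (SE 0.21). The clones overlapped for both genes. Under median centring the signs turned, to -0.029 for HOXC4 and -0.16 for HOXC5, and HOXC5 was at -0.084 before quantile normalization. RefSeq lists one promoter window for both genes, chr12:54016638-54016937 on the plus strand of GRCh38.p14, and it is shown because the genes share this start.
HOXC4 and HOXC5: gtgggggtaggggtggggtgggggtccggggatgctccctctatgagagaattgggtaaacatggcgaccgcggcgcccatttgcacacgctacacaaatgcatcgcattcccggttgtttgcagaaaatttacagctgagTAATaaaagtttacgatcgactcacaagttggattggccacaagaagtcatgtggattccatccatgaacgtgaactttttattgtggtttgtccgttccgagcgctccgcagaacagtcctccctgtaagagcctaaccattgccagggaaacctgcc
It held 1 TAAT, in capitals, and no TGATNNAT. It held 15 CG dinucleotides, close to the median of 14 over all promoter windows.

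Toward the tail end of the cluster, HOXC11 and HOXC13 were the HOXC genes whose groups did not overlap above the background range. HOXC11 had log2 signals of 7.18 and 7.28 on the CD133+ arrays against 6.61 and 6.59 on the CD133- arrays. Its log2 difference was 0.63 (SE 0.17, 95% interval 0.23 to 1.02, unadjusted p = 0.00654), with the lowest adjusted p of all members, 0.203, and 0.0918 in the gene fit. Under median centring it was 0.38 (unadjusted p = 0.119). HOXC13, needed for hair and nails, had 7.06 and 7.11 on the CD133+ arrays against 6.61 and 6.88 on the CD133- arrays, a log2 difference of 0.34 (SE 0.18, adjusted p = 0.485), which was 0.097 under median centring and 0.20 without CD133- replicate 1. HOXC10, between HOXC9 and HOXC11 and active in hindlimb motor neurons of mice, had 7.30 and 7.16 on the CD133+ arrays against 7.19 and 7.32 on the CD133- arrays, a log2 difference of -0.023 (SE 0.17). HOXC9 had 5.69 and 5.39 on the CD133+ arrays against 5.60 and 5.58 on the CD133- arrays, a log2 difference of -0.045 (SE 0.21). HOXC6 had 8.60 and 8.49 on the CD133+ arrays against 8.62 and 8.26 on the CD133- arrays, a log2 difference of 0.11 (SE 0.16) whose sign turned without quantile normalization (-0.0026) and under median centring (-0.081). These 3 genes overlapped between the clones. HOXC8 and HOXC12, within the background range, had log2 differences of 0.20 and 0.15.

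In the HOXD cluster on chromosome 2, HOXD9 alone lay above the background range. At 205604_at HOXD9 had log2 signals of 6.31 and 6.20 on the CD133+ arrays against 6.62 and 6.88 on the CD133- arrays, a log2 difference of -0.50 (SE 0.19, 95% interval -0.94 to -0.056, unadjusted p = 0.0320, adjusted p = 0.340). At 205605_at it had 5.42 and 5.89 on the CD133+ arrays against 5.21 and 5.62 on the CD133- arrays, a log2 difference of 0.24 (SE 0.25, adjusted p = 0.738). The groups did not overlap at the first and overlapped at the second, and the HOXD9 probe sets had opposite signs, although 205605_at was at 0.0054 without CD133+ replicate 2 and 0.036 without CD133- replicate 1. The other 13 HOXD probe sets, for HOXD1, HOXD4, HOXD8, HOXD10, HOXD11, HOXD12 and HOXD13, lay within the background range with log2 differences from -0.42 (HOXD8) to 0.59 (HOXD4). HOXD13, whose mutations cause fused digits, had log2 differences of -0.18, 0.030 and 0.43 over 3 probe sets.

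HOXD4, a hindbrain and neck gene, had the largest log2 difference among members within the background range. At 205522_at it had log2 signals of 4.78 and 4.06 on the CD133+ arrays against 3.69 and 3.96 on the CD133- arrays, 0.59 higher (SE 0.26, unadjusted p = 0.0560, adjusted p = 0.409), and at 1552337_s_at 0.37 higher (SE 0.22). The gap between the CD133+ replicates at 205522_at, 0.73, exceeded the difference between the clones. The HOXD4 promoter window, chr2:176151300-176151599 on the plus strand of GRCh38.p14, is shown for this gene.
HOXD4: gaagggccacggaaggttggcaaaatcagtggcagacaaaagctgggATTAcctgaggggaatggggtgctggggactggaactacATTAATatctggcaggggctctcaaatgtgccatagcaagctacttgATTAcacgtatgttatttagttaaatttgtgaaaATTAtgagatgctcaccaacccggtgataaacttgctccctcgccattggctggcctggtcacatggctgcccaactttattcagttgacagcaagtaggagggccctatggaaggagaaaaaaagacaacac
It held 5 TAAT, in capitals, with one overlapping pair, no TGATNNAT and 4 CG dinucleotides, and 24.5% of all promoter windows held fewer. HOXA2, a gene of the branchial arches on chromosome 7, had log2 signals of 4.94 and 4.11 on the CD133+ arrays against 4.32 and 4.10 on the CD133- arrays, a log2 difference of 0.32 (SE 0.29, adjusted p = 0.695).

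**Figure D2:**
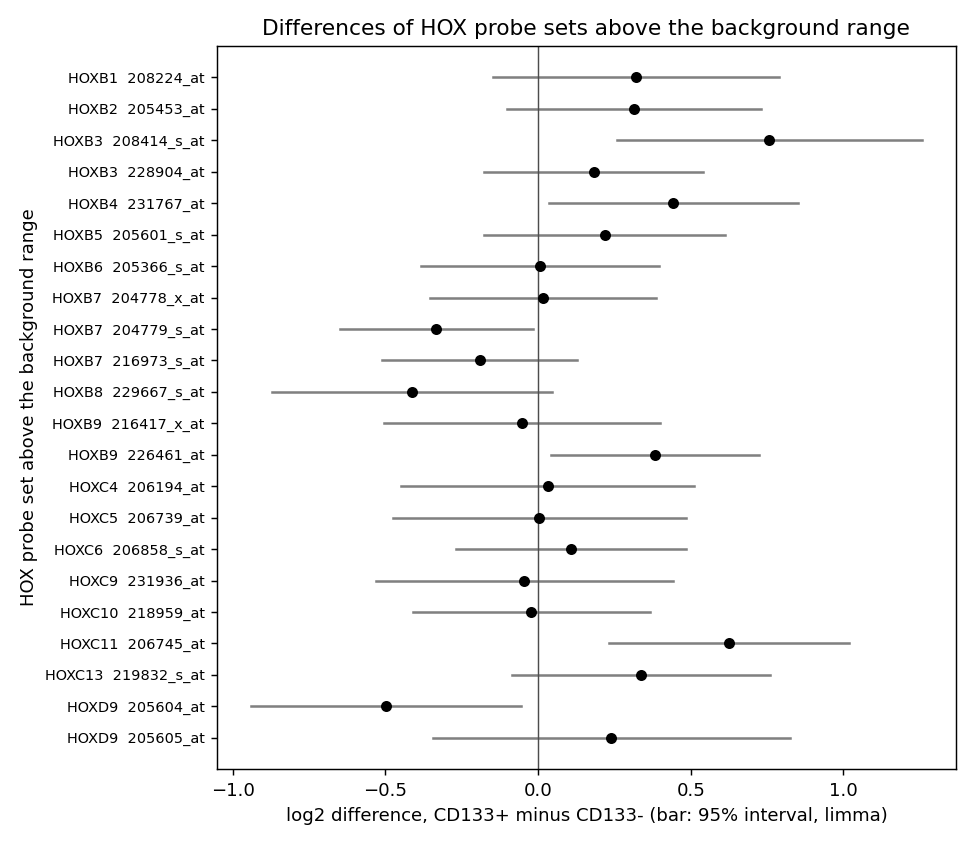
Log2 difference, CD133+ minus CD133- (horizontal axis), of the 22 HOX probe sets above the background range (rows), with points for the estimate and bars for limma's 95% interval. The bars of 6 probe sets, of HOXB3, HOXB4, HOXB7, HOXB9, HOXC11 and HOXD9, leave out 0 before adjustment for multiple tests, and 0 probe sets passed after it.

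Of the 28 genes 13 had more than 1 probe set, and in 7 of these the probe sets had both signs: HOXB5, HOXB7, HOXB8, HOXB9, HOXD9, HOXD10 and HOXD13. In each the mixed signs involve dim or imprecise values. HOXB5 and HOXB8 had 1 probe set each above the background range, and HOXD10 and HOXD13 had 0. HOXB7 204778_x_at was at 0.016 (SE 0.16), HOXB9 216417_x_at at -0.053 (SE 0.19) and HOXD9 205605_at at 0.24 (SE 0.25). The share of all genes with mixed signs was not taken. Probe sets ending in _s_at or _x_at can bind transcripts of several genes, and HOX paralogs are alike in their homeobox. HOXD9 and HOXD10 had no probe set with either ending. Whether such binding had a part in the mixed signs was not tested.

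Many genes around the HOXD cluster fell in CD133+ cells, and some around HOXA rose. The 25 measured genes on either side of each cluster, HOX genes left out, were compared with the median log2 difference of 0.047 over all 19775 genes. Stretches of chromosomes 2 and 7, among others, were already known from an earlier analysis of these data to differ between the clones. The values around HOXD and HOXA come from the same arrays and are not independent of that earlier result. Around HOXD on chromosome 2 the median log2 difference of the 50 neighbours was -0.52, and 23 of the 40 tested fell while 0 rose, against 2.38% of all genes called lower. Around HOXA on chromosome 7 the median was 0.18, and 7 of 39 rose and 0 fell, against 1.36% called higher. The 7 became 1 without CD133- replicate 1, 3 without CD133- replicate 2, and 2 both without quantile normalization and under median centring. Around HOXB it was 0.11, with 2 of 45 called higher (COPZ2 and SKAP1; 0 without CD133+ replicate 2 or either CD133- array), and around HOXC 0.14, with 0 of 45 called in either direction. With centred arrays these medians were -0.61 for HOXD, 0.072 for HOXA, 0.013 for HOXB and -0.0048 for HOXC. Over all probe sets, rather than genes, the median was -0.042 with centred arrays and 0.015 with quantile normalization. Copy number was not measured, and its part in these shifts was not tested.

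The HOXD neighbours were also split by the background range, which is judged on the mean of all arrays, so that a fall can itself place a gene. Of the 33 above the background range 31 had a negative log2 difference, with a median of -0.71 and 22 called lower, while the 17 within the range had a median of 0.017, with TTN alone called lower. DLX1 and FKBP7, among the 22, were above 4.92 in the CD133- clone only. Of the 31 neighbours above it in each clone 29 had a negative log2 difference, with a median of -0.71 and 20 called lower. HOXD9, the one HOXD gene above the range, was at -0.50, and the 7 HOXD genes within it had a median of 0.047; HOXD9 205605_at, at 0.24, had the opposite sign to most neighbours above the range. MTX2, a mitochondrial import protein next to HOXD1, had log2 signals of 9.96 and 9.94 on the CD133+ arrays against 10.62 on both CD133- arrays, a log2 difference of -0.68 (SE 0.0855, adjusted p = 0.00999). LNPK, an endoplasmic reticulum shaping protein next to HOXD13, had 5.18 and 5.14 on the CD133+ arrays against 6.42 and 6.04 on the CD133- arrays, a log2 difference of -1.07 (SE 0.22, adjusted p = 0.0408). ATP5MC3, an ATP synthase subunit beyond LNPK, fell by 0.50 (SE 0.077, adjusted p = 0.0167), and LINC01116, beyond MTX2, was at -0.46 (adjusted p = 0.291). Without CD133- replicate 1 only 5 of the HOXD neighbours were called lower and the adjusted p was 0.0671 for MTX2, 0.217 for LNPK and 0.144 for ATP5MC3. With the mean of the probe sets of each gene, 7 were called lower, and ATP5MC3 was at -0.39 (adjusted p = 0.115). Without CD133- replicate 2 there were 15, while the median stayed between -0.65 and -0.55 whichever array was left out. LNPK also missed the threshold without CD133+ replicate 1 (0.0971) or 2 (0.118) and in the values as deposited (0.0632).

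Next to the other clusters, EVX1, a homeobox gene beside HOXA, had log2 signals of 6.85 and 7.11 on the CD133+ arrays against 5.81 and 6.36 on the CD133- arrays, a log2 difference of 0.89 (SE 0.24, adjusted p = 0.0842; 0.0478 without CD133- replicate 2). SKAP2, an adaptor protein on the other side of HOXA, was at 0.38 (SE 0.095, adjusted p = 0.0686). SKAP1, its relative near HOXB, rose by 0.58 (SE 0.13, adjusted p = 0.0496), and missed the threshold without CD133+ replicate 2 (0.148), without CD133- replicate 1 (0.287) or 2 (0.0979), without quantile normalization (0.0958) and under median centring (0.215). TTLL6 and CALCOCO2 on the other side of HOXB were at 0.35 and 0.11. Beside HOXC, CALCOCO1 was at 0.47 (adjusted p = 0.211) and ATP5MC2 at -0.29 (adjusted p = 0.102). The other genes among the nearest 2 on a side were LINC02860 (-0.023) and HOTTIP (0.0195) at HOXA, LOC101927166 (0.57) at HOXB, and FLJ12825 (0.24) and LOC100240734 (0.15) at HOXC.

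**Figure D3:**
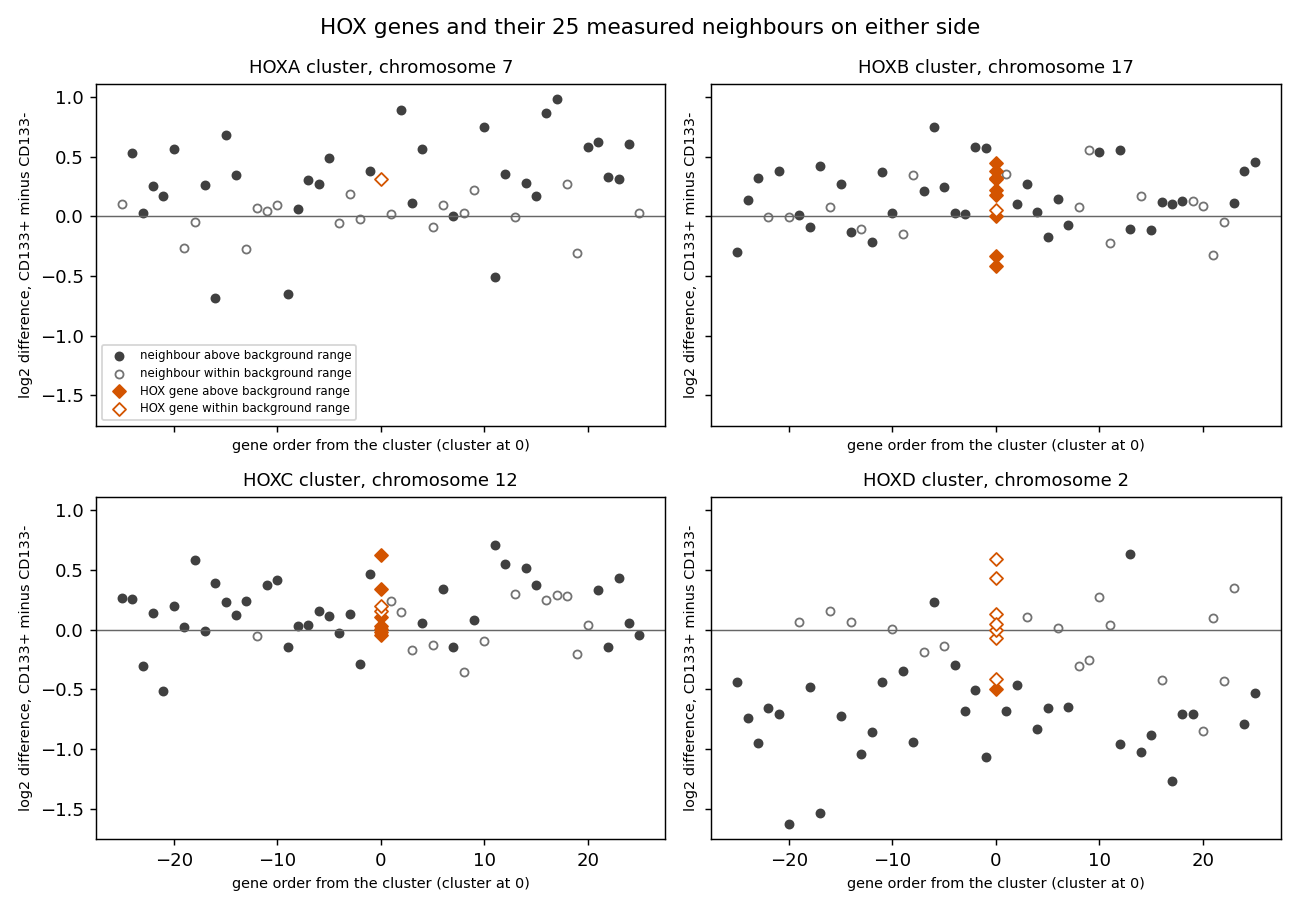
Log2 difference, CD133+ minus CD133- (vertical axis), of the 25 measured genes on either side of each HOX cluster, in chromosome order (horizontal axis, cluster at 0), with diamonds for the HOX genes and filled symbols for genes above the background range. Around HOXD 31 of the 33 filled circles lie below 0, while around HOXB and HOXC the neighbours lie on both sides of 0.

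Noncoding RNAs transcribed within or next to the clusters did not pass the test. Over 23 probe sets of 11 such genes 0 were called, where 0.181% of all probe sets were called. HOTTIP, next to HOXA, is among them and also counted with the HOXA neighbours. The lowest adjusted p was 0.269, and the median log2 difference was 0.012. Of these probe sets 4 lay above the background range. Those of HOXA11-AS (mean 5.22) and HOXB-AS3 (5.19) lay under the brightest olfactory receptor probe set (5.63), so expression is not established by them. HOXA11-AS had log2 signals of 5.30 and 5.64 on the CD133+ arrays against 5.16 and 4.78 on the CD133- arrays, a log2 difference of 0.50 (SE 0.24, adjusted p = 0.437). HOXA-AS2 had 7.08 and 6.86 on the CD133+ arrays against 6.65 and 6.53 on the CD133- arrays at 1562640_at, a log2 difference of 0.38 (SE 0.18, adjusted p = 0.444). The groups did not overlap at these probe sets. They overlapped at the other ones of both RNAs: HOXA-AS2 230080_at, also above the background range, was at 0.12, while HOXA-AS2 242528_at and HOXA11-AS 239950_at, within it, were at -0.049 and -0.043. HOXD-AS2, within the background range, was at 0.43 (adjusted p = 0.445). HOXB-AS3, antisense in the HOXB cluster, held that lowest p at 239791_at, within the background range, with 4.02 and 4.58 on the CD133+ arrays against 5.10 and 5.0 on the CD133- arrays, a log2 difference of -0.75 (SE 0.24). Its probe set above the range, 236892_s_at, was at -0.37 (adjusted p = 0.483), and 236893_at and 240151_at had positive signs. HOXB-AS1 237189_at, with the second smallest p, had 3.60 on both CD133+ arrays against 4.12 and 3.90 on the CD133- arrays, a log2 difference of -0.41 (SE 0.16, unadjusted p = 0.0399, adjusted p = 0.363), and HOXB-AS1 244512_at was at 0.22. HOTAIR, a HOXC transcript tied to Polycomb, lay within the background range, with 4.42 and 3.96 on the CD133+ arrays against 5.02 and 4.27 on the CD133- arrays.

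Cofactors that bind DNA with HOX proteins did not pass the test. Of the HOX cofactors 0 of 8 tested were called, where 3.74% of all genes tested were called. Of the cofactors 7 lay above the background range. The median log2 difference of the 8 was 0.14, beside 0.058 over all genes tested. MEIS3, a cofactor of the TALE class, had the smallest p, with log2 signals of 6.19 and 6.36 on the CD133+ arrays against 5.23 and 5.65 on the CD133- arrays, a log2 difference of 0.83 (SE 0.23, adjusted p = 0.0929). PKNOX1 and PKNOX2, of the same class, were at 0.30 (adjusted p = 0.314) and 0.44 (adjusted p = 0.321). MEIS2 was at -0.535 (adjusted p = 0.347), with both CD133+ arrays below both CD133- arrays, and MEIS1, within the background range, at -0.25 (adjusted p = 0.514). PBX2, PBX3 and PBX4 were at 0.16, -0.17 and 0.13.

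Of the Polycomb genes 1 of 23 tested rose, against 1.36% of all genes, and 0 fell, against 2.38%, with a median log2 difference of -0.017. The one was PHC2, a subunit of Polycomb complex 1, with log2 signals of 11.11 and 11.09 on the CD133+ arrays against 10.74 and 10.75 on the CD133- arrays, a log2 difference of 0.36 (SE 0.079, adjusted p = 0.0479). Its adjusted p missed the threshold whichever array was left out (0.0614 to 0.312), without quantile normalization (0.0759) and under median centring (0.244), and the mean of its probe sets was -0.225 (adjusted p = 0.459). CBX2, a reader of the Polycomb mark, was at 0.47 (adjusted p = 0.150) and EED, a core subunit of Polycomb complex 2, at -0.43 (adjusted p = 0.158). Of the Trithorax group and histone demethylase genes, which oppose Polycomb, 0 of 13 passed (median -0.072), and MEN1, the menin gene, had the smallest p, at 0.42 (SE 0.12, adjusted p = 0.0926). KDM6B, a demethylase of the Polycomb mark, was at 0.36 (adjusted p = 0.209) and PSIP1 at -0.29 (adjusted p = 0.333).

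CDX and retinoic acid genes, which act upstream of HOX expression in the embryo, included 2 that fell. Of 5 tested CDX and ParaHox genes 0 passed (median 0.24): CDX1 and CDX2, regulators of intestinal identity, were at 0.39 (SE 0.31, adjusted p = 0.499) and 0.16 (SE 0.20, adjusted p = 0.684), and GSX2, within the background range, at 0.43 (adjusted p = 0.246). PDX1, a pancreas and duodenum gene also within the range, was at 0.24 (adjusted p = 0.630). Of 16 retinoic acid genes 2 fell, against 2.38% of all genes, and 0 rose, against 1.36%, with a median log2 difference of 0.23. Both encode enzymes of successive steps from retinol to retinoic acid. RDH10, the retinol dehydrogenase, had log2 signals of 8.41 and 8.32 on the CD133+ arrays against 9.24 and 9.26 on the CD133- arrays, a log2 difference of -0.88 (SE 0.11, adjusted p = 0.00999; 0.0548 without CD133- replicate 1). ALDH1A3, the next enzyme, had 6.33 and 5.98 on the CD133+ arrays against 7.25 and 7.67 on the CD133- arrays, a log2 difference of -1.30 (SE 0.22, adjusted p = 0.0211; 0.0631 without CD133- replicate 2). The receptor RARG was at 0.58 (SE 0.18, adjusted p = 0.130).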

How the data were processed

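The authors deposited log2 probe-set signals, as their range shows, made with Affymetrix Expression Console per the submitters' processing notes; version, background correction and summarisation are not given in the sources used here. Array medians differed by 0.144, over the limit of 0.1 set for it, so values were quantile-normalized, which removes any difference in the overall distribution. Probe sets were named by the platform annotation: 41091 name 1 gene, 1801 several and 11721 none. RefSeq (GRCh38.p14) gave chromosomes, gene order and promoters.

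limma 3.58.1 (R 4.3.3; lmFit, eBayes with trend) compared the groups over all 54613 probe sets, with no filter, and over 15820 genes (brightest probe set, lowest 20% by level left out); Benjamini-Hochberg adjustment, called under 0.05. Lists and neighbours use the gene fit. With 2 arrays a group the smallest exact two-sided permutation p is 0.333, so the number of arrays limits precision. The fit was tested on simulated data. Members, lists and the look at cluster neighbours were chosen with earlier results of these data known. Values were given for members above the background range or among the 6 smallest p, the 2 nearest genes on each side of a cluster, and called members or the 3 smallest p of each list. Alternatives were normalization, filters, variance model, probe-set choice, thresholds, replicate block and each array left out. Tables were made with Python 3.11.15 (numpy 2.4.6, pandas 2.3.3).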

Additional observations from a re-analysis of the deposited data

How the results depend on the processing

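No HOX probe set or gene was called in limma under any alternative tried except the replicate block. With it, 2 HOX probe sets were higher (HOXB3 208414_s_at, adjusted p = 0.0427, and HOXC11, 0.0451) and 0 lower, and 3 HOX genes higher and 1 lower, where 4.41% of all probe sets and 19.2% of genes were then called. Deviations of the same-numbered arrays correlated at r = 0.40 across probe sets, but with 2 pairs and no label for a shared batch the numbers are not shown to pair the arrays. Shares over all features at an unadjusted p under 0.05 were taken in the main fit only, at 12.7% of probe sets and 20.7% of genes. Whether the HOX counts given next moved with the whole series was therefore not tested. The count at an unadjusted p under 0.05 was 12 for probe sets and 11 for genes with the block, 0 for both in a test against a 1.5-fold change, 4 for genes with the mean of probe sets, and with 1 array left out 3 to 7 for probe sets (3 without CD133- replicate 1) and 2 to 6 for genes (2 without CD133- replicate 1, 3 without CD133+ replicate 1). Of all genes tested 3.74% were called, against 19.2% with the block, 6.88% with genes below the median level left out, 0.708% leaving out CD133- replicate 1, 2.22% leaving out CD133- replicate 2, and 1.58% by averaging the probe sets of a gene. Over the 22 probe sets above the background range the sign of an uncalled difference turned in 23 of 286 recomputed values, which are not counted as reversals, and 13 probe sets kept their sign throughout. Between 21 and 24 HOX probe sets lay above the range under other percentiles, scalings and arrays.

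The median log2 difference of the HOXD neighbours was -0.32 with 10 and -0.43 with 50 genes a side, -0.61 with centred arrays, -0.71 without dim genes and -0.65 to -0.55 with 1 array left out. It was 0.10 for HOXA, 0.18 for HOXB and 0.048 for HOXC with 10 genes a side, 0.039 for HOXC with 50, 0.072, 0.013 and -0.0048 for HOXA, HOXB and HOXC with centred arrays, and 0.27 for HOXA without dim genes. With 1 array left out it was 0.13 to 0.255 for HOXA, 0.0805 to 0.13 for HOXB and 0.033 to 0.23 for HOXC. In a split added after seeing the data, neighbours above the background range had 0.33 (HOXA) and -0.71 (HOXD), those above it in each clone 0.32 (HOXA) and -0.71 (HOXD), and those within it 0.027 (HOXA), 0.074 (HOXB) and 0.017 (HOXD). Neighbours called lower around HOXD numbered 7 with the mean of probe sets, 0 without a variance trend (17 genes called in all), 0 against a 1.5-fold change (7 in all) and 5 to 21 with 1 array left out. Those called higher around HOXA numbered 2 with the mean of probe sets, as deposited or centred, 0 without a trend and against a 1.5-fold change, 15 with the block and 1 to 6 with 1 array left out. Around HOXB there were 0 as deposited, centred, with the mean of probe sets, without a trend and against a 1.5-fold change, 1 with no filter, 7 with the block and 0 to 2 with 1 array left out. The block also called MEIS3 (adjusted p = 0.00923), EVX1 (0.00504), SKAP2 (0.0101), MEN1 (0.0142) and RARG (0.0207) higher. PHC2 reversed to -0.225 with the mean of its probe sets. The cause of these changes was not tested.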
